A study of Mus musculus with 12 samples.

Results

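Genes of amino acid supply and of the ATF4 stress response were examined in 12 RNA libraries of clonal mouse digit fibroblasts. The set was a list of 43 gene symbols in 4 functions: 11 enzymes of amino acid synthesis, 7 amino acid transporters, 12 tRNA synthetases and 13 effectors of the stress response. All 43 were found among the 35976 symbols of the deposited table, and for each the transcript with the most counts over all libraries was used. The members were listed by what they do, though with earlier results of these data known. Their counts beside the shares of all transcripts are therefore a description and not an independent test.

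P3D8 and P3E3 are each a single clone grown from 1 cell of adult mouse terminal digit fibroblasts that carry a *lacZ* transgene, so a difference between them is a difference between 2 clones. Each was sampled at passage 6 in 3 monolayer cultures without BMP2 or BMP9, grown on fibronectin in 2% serum with EGF and PDGF at 10 ng/ml and LIF at 0.5 ng/ml, and collected near confluence. Each was also sampled as 3 cultures of BMP9 cartilage, here P3D8/BMP9 and P3E3/BMP9, for which cells in suspension received 50 ng/ml BMP2 over 4 days and then 50 ng/ml BMP9 over 14 days in 2% serum. Culture format, growth factors, time in culture and the BMPs changed together between monolayer and cartilage, so their effects cannot be told apart.

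ATF4 is a transcription factor whose mRNA is translated better when the initiation factor eIF2 is phosphorylated, by the kinase GCN2 when amino acids run short or by PERK when proteins misfold in the endoplasmic reticulum. It binds, with a C/EBP family partner, a composite element called CARE and raises genes that make amino acids, bring them into the cell and charge them to tRNAs, together with effectors such as CHOP and TRIB3. In cartilage the same arm is known from chondrocytes, which secrete large amounts of glycine- and proline-rich collagen.

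The 7269748 to 8662298 counted reads per library were recovered as whole numbers from the deposited values, which are counts divided by a size factor and are called normalized counts below. They sum to 4427820 to 4968520 in monolayer and to 6308470 to 7026920 in cartilage libraries. For 4 libraries, 1 per group, the title and the cell line field disagree on the clone. Grouping was by title, and along the 2nd principal component (8.71% of variance) the libraries also separated by title. They lay at -31.0 to -21.7 when titled P3D8 and at 23.0 to 29.8 when titled P3E3. Grouping by the cell line field, an alternative below, puts into each group 1 library that lies with the other clone on this component. The 13 chondrocyte markers found summed to 724 to 921 normalized counts in the monolayer libraries, to 7763 to 13897 in P3D8/BMP9 and to 9378 to 38593 in P3E3/BMP9. These sums were mostly *Sox9* (means of 781 and 879 in P3D8 and P3E3 monolayer) and, in cartilage, also *Col10a1* (6818 and 14451). *Col2a1* had means of 59.8 and 61.7 in cartilage. The 11 fibroblast markers found also summed higher in cartilage. They went from 131614 to 158552 up to 1080970 to 1148220 in P3D8, and from 65321 to 67275 up to 598326 to 693469 in P3E3. The largest means in P3D8/BMP9 and P3E3/BMP9 were those of *Col1a2* (526666 and 336989) and *Col1a1* (354868 and 123516). *Pdgfra* went the other way, from a mean of 24.6 to 16.0 in P3D8 and from 11.1 to 2.16 in P3E3. All 6 endothelial markers were listed at 0 throughout, and the 6 leukocyte markers summed to at most 7.46 and the 6 epithelial markers to at most 28.9. The endothelial and most of the leukocyte markers have several transcript entries, and such genes are undercounted here. The fibroblast marker *Fn1*, with 13 entries, was also at 0 in all 12 libraries. These values are therefore not read as absence of a cell type. Among libraries of 1 group, replicate 3 of P3D8/BMP9 had the highest value in 20 of the 22 members tested, with a median deviation of 0.39 from the group mean on the log2 scale against 0.029 over all tested transcripts. Replicate 3 of P3E3 monolayer had the lowest value in 17 of 22 members, with a median deviation of -0.29 against 0.012.

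Of the 43 members, 22 reached a mean of 10 normalized counts and were tested. The 12 members with 1 transcript entry were all tested, with means of 640 to 10813. Of the 31 with several entries 10 were tested, with means of 10.6 to 456, and 7 of these lay under 50. Of the 21 not tested, 10 were listed at 0 in all 12 libraries (*Shmt2*, *Aldh18a1*, *Cbs*, *Cars*, *Lars*, *Nars*, *Wars*, *Cebpb*, *Vldlr* and *Fgf21*). The other 11 did not exceed 19.0 in any library. The table undercounts genes that have several entries, so these values are not read as absence, and a row of such a gene holds only part of its reads. *Atf4* itself, with 2 entries, had 0 to 5.15 normalized counts, its relative *Atf5* had 2.61 to 7.66, and *Asns*, asparagine synthetase, had 0 to 4.35. None of these 3 could be compared between the groups at this depth.

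The CARE motif, TGATGNAA on either strand, was looked for in RefSeq promoters of GRCm38.p6, a window of 250 bases before to 50 after each annotated start. It was present in 14 of the 35 members that had a promoter sequence (40.0%) and in 4.51% of all 27025 genes. With the free base fixed to C the counts were 11 of 35 members (31.4%) and 1.03% of genes, and TGACGTCA, the palindromic cyclic AMP element, was in no member and in 2.03% of genes. Some of the members are known as ATF4 targets through this element. The windows of 8 of the 9 tested members with a match are printed below on the gene strand, with the motif in capitals. The match of *Yars*, at base 4 of the transcript, is not printed. The window of *Slc7a11* has 2 matches on opposite strands.
*Slc7a11*, chr3:50443642-50443690: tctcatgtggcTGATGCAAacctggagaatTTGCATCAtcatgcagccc
*Chac1*, chr2:119351028-119351077: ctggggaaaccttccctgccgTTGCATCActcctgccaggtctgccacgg
*Nupr1*, chr7:126625552-126625601: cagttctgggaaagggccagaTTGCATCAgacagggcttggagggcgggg
*Gars*, chr6:55037950-55037999: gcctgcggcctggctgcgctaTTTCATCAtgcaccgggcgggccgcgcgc
*Pycr1*, chr11:120643823-120643872: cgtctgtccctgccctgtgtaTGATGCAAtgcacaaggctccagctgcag
*Tars*, chr15:11399655-11399684: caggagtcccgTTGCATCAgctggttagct
*Slc1a4*, chr11:20332699-20332728: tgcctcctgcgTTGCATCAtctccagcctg
*Trib3*, chr2:152344028-152344057: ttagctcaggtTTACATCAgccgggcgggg
The match began 193 bases before the start in *Chac1*, 110 before it in *Nupr1* and 103 before it in *Pycr1*. It lay within 30 bases of the start in *Gars*, *Tars* and *Slc1a4*, and it began at base 15 of the transcript in *Trib3*. A match is a description of the letters and not a measured site.

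**Figure D1:**
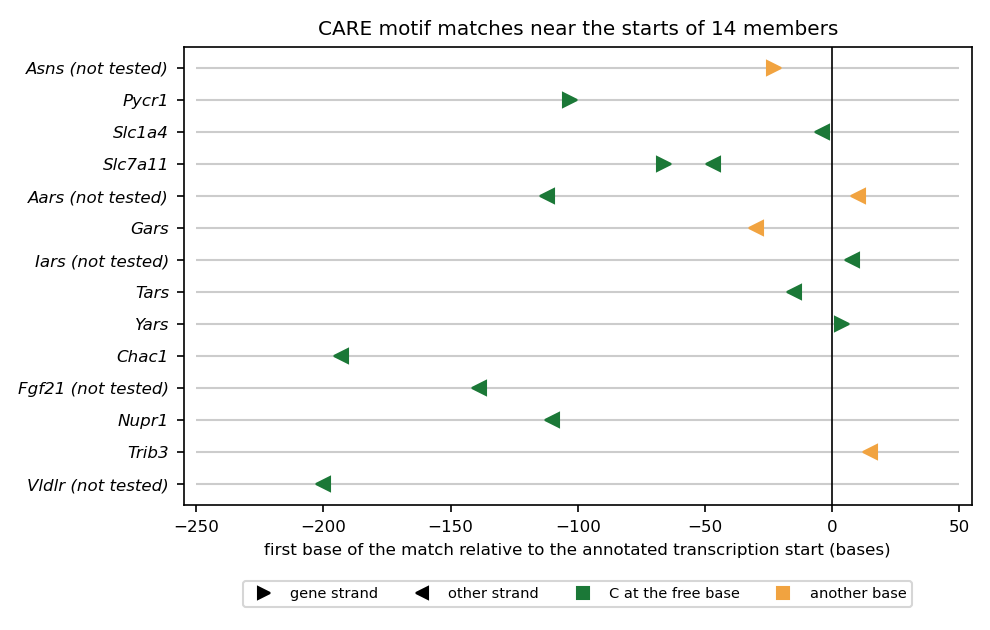
Position of each CARE match in the 14 members that have one, in bases from the annotated transcription start (axis). Arrows give the strand and color gives the free base. Matches spread from 200 bases before the start (*Vldlr*) to base 15 after it (*Trib3*), and *Slc7a11* and *Aars* each have 2.

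In P3D8 cells most of the tested genes were lower in cartilage than in monolayer. Of 22 members tested 17 were lower and 3 higher (limma on the log2 scale, Benjamini-Hochberg adjusted p under 0.05 over 5333 transcripts), where 38.8% of all tested transcripts were lower and 37.5% higher. The median log2 fold change (log2FC) of the members was -1.95, against -0.039 over all tested transcripts. By function, 4 of 5 synthesis genes, 4 of 5 transporters, 2 of 4 tRNA synthetases and 7 of 8 stress effectors were lower, and *Pycr1*, *Sars* and *Ddit3* were higher. In P3E3 cells the same step gave 8 members lower and 6 higher, where 38.3% of all transcripts were lower and 41.4% higher, with a median of -0.18 against 0.061. All 12 members with 1 entry were lower in P3D8/BMP9 cartilage, whereas in P3E3/BMP9 cartilage 5 of them were lower, 3 higher and 4 not called. As these are whole cultures, fewer cells of a type and less RNA per cell cannot be told apart.

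The scale matters for the P3E3 response. Scaled to total reads in place of the authors' size factors, an alternative added after the data had been seen, the median of all transcripts moved from 0.061 to -0.54 in P3E3 and from -0.039 to -0.41 in P3D8. Relative to that median the members lay at -0.24 on both scales in P3E3, and at -1.92 on both in P3D8. On this scale 14 members were lower and 3 higher in P3E3/BMP9 cartilage, where 54.6% of all tested transcripts were lower and 29.6% higher. In P3D8/BMP9 cartilage 18 were lower and 2 higher, where 51.0% of all tested transcripts were lower and 28.7% higher.

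**Figure D2:**
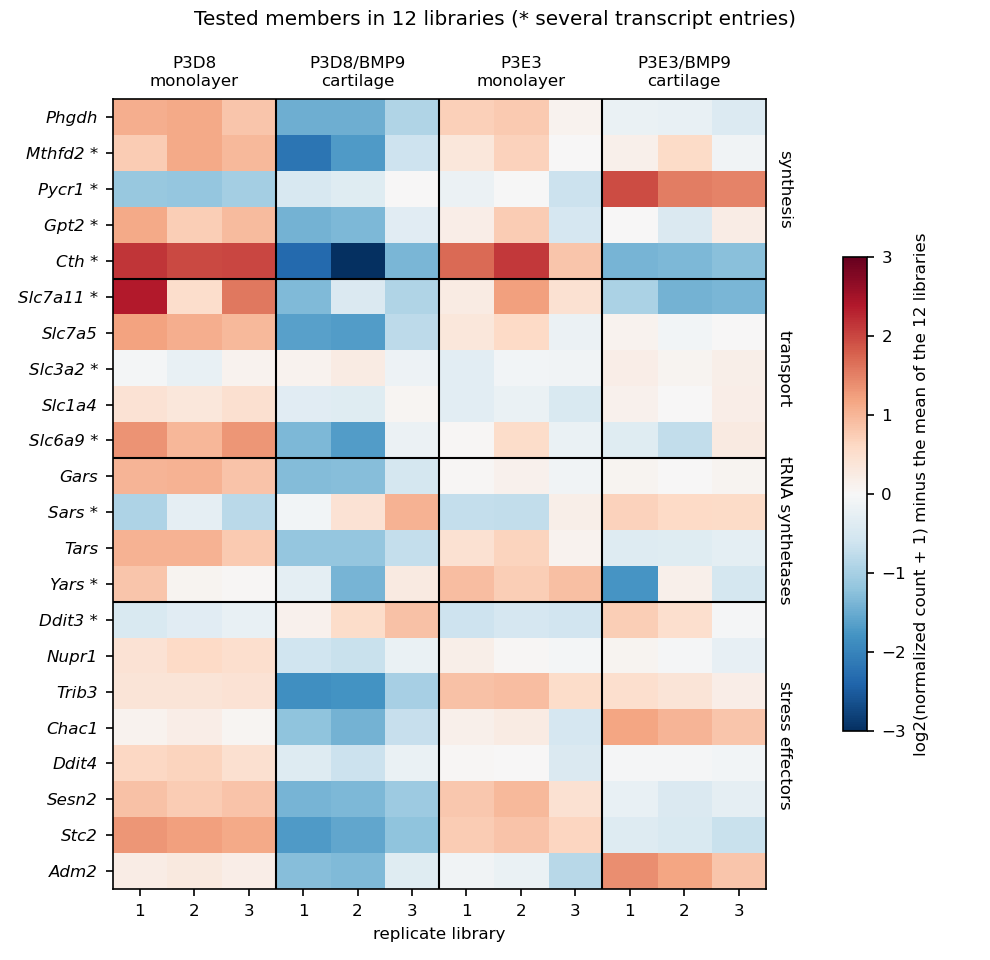
Level of the 22 tested members in each of the 12 libraries, as log2(normalized count + 1) minus the mean of the member over all libraries (color). Rows are grouped by function, and an asterisk marks members with several transcript entries. P3D8/BMP9 libraries are low for most members, and *Pycr1*, *Chac1* and *Adm2* are highest in the P3E3/BMP9 libraries.

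Among the synthesis genes, *Phgdh* encodes phosphoglycerate dehydrogenase, the first enzyme of serine synthesis (chr3:98313171-98339969, GRCm38.p6 here and below). It had 8385, 8685 and 7033 normalized counts in the P3D8 monolayer libraries and 1427, 1435 and 2095 in P3D8/BMP9. In P3E3 it had 6494, 6780 and 4253 in monolayer and 3440, 3377 and 2956 in cartilage. No group overlapped with another: P3D8 monolayer was the highest and P3D8/BMP9 cartilage the lowest. The log2FC was -2.30 (SE 0.17, limma adjusted p = 1.92e-08) in P3D8 and -0.82 (SE 0.17, adjusted p = 0.000586) in P3E3.

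*Cth*, cystathionine gamma-lyase, which releases cysteine in the transsulfuration pathway, had the largest fall of the set. It went from 433, 387 and 397 normalized counts in P3D8 monolayer to 18.7, 10.7 and 37.2 in P3D8/BMP9, and from 320, 427 and 176 in P3E3 monolayer to 36.8, 38.0 and 40.3 in P3E3/BMP9. Cartilage and monolayer did not overlap in either clone, and the log2FC was -4.30 (SE 0.35) in P3D8 and -2.88 (SE 0.35) in P3E3 (limma adjusted p = 5.07e-08 and 3.24e-06). *Gpt2*, mitochondrial alanine aminotransferase, had 766 ± 101, 205 ± 91.3, 470 ± 200 and 385 ± 86.4 (SD, n = 3 each) in P3D8 monolayer, P3D8/BMP9, P3E3 monolayer and P3E3/BMP9. It fell in P3D8 (log2FC -1.98, SE 0.31). In P3E3 the libraries of monolayer and cartilage overlapped, and the log2FC of -0.22 had a 95% interval of -0.88 to 0.44. Scaled to total reads the P3E3 value was -0.83 (limma adjusted p = 0.0202). It was -0.56 (adjusted p = 0.0221) without replicate 3 of both P3D8/BMP9 and P3E3 monolayer. *Mthfd2*, which makes one-carbon units in mitochondria, was counted at 18.3, 23.8 and 21.1 in P3D8 monolayer and at 1.49, 2.47 and 6.33 in P3D8/BMP9. Its P3E3 values were 13.3, 17.2 and 10.3 in monolayer and 11.5, 15.7 and 9.44 in cartilage, and these overlapped. The log2FC was -2.46 (SE 0.36) in P3D8 and -0.15 (95% interval -0.92 to 0.63) in P3E3.

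The enzyme of the last step of proline synthesis went the other way. *Pycr1*, mitochondrial pyrroline-5-carboxylate reductase, had 43.1, 42.4 and 46.6 normalized counts in P3D8 monolayer and 68.6, 74.2 and 95.7 in P3D8/BMP9. In P3E3 it had 84.5, 95.5 and 60.9 in monolayer and 373, 281 and 269 in cartilage. Every P3E3/BMP9 library lay above all other libraries. The log2FC was 0.83 (SE 0.19, limma adjusted p = 0.00117) in P3D8 and 1.93 (SE 0.19, adjusted p = 2.81e-07) in P3E3. *Pycr1* has 5 transcript entries, and only the most counted was used.

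**Figure D3:**
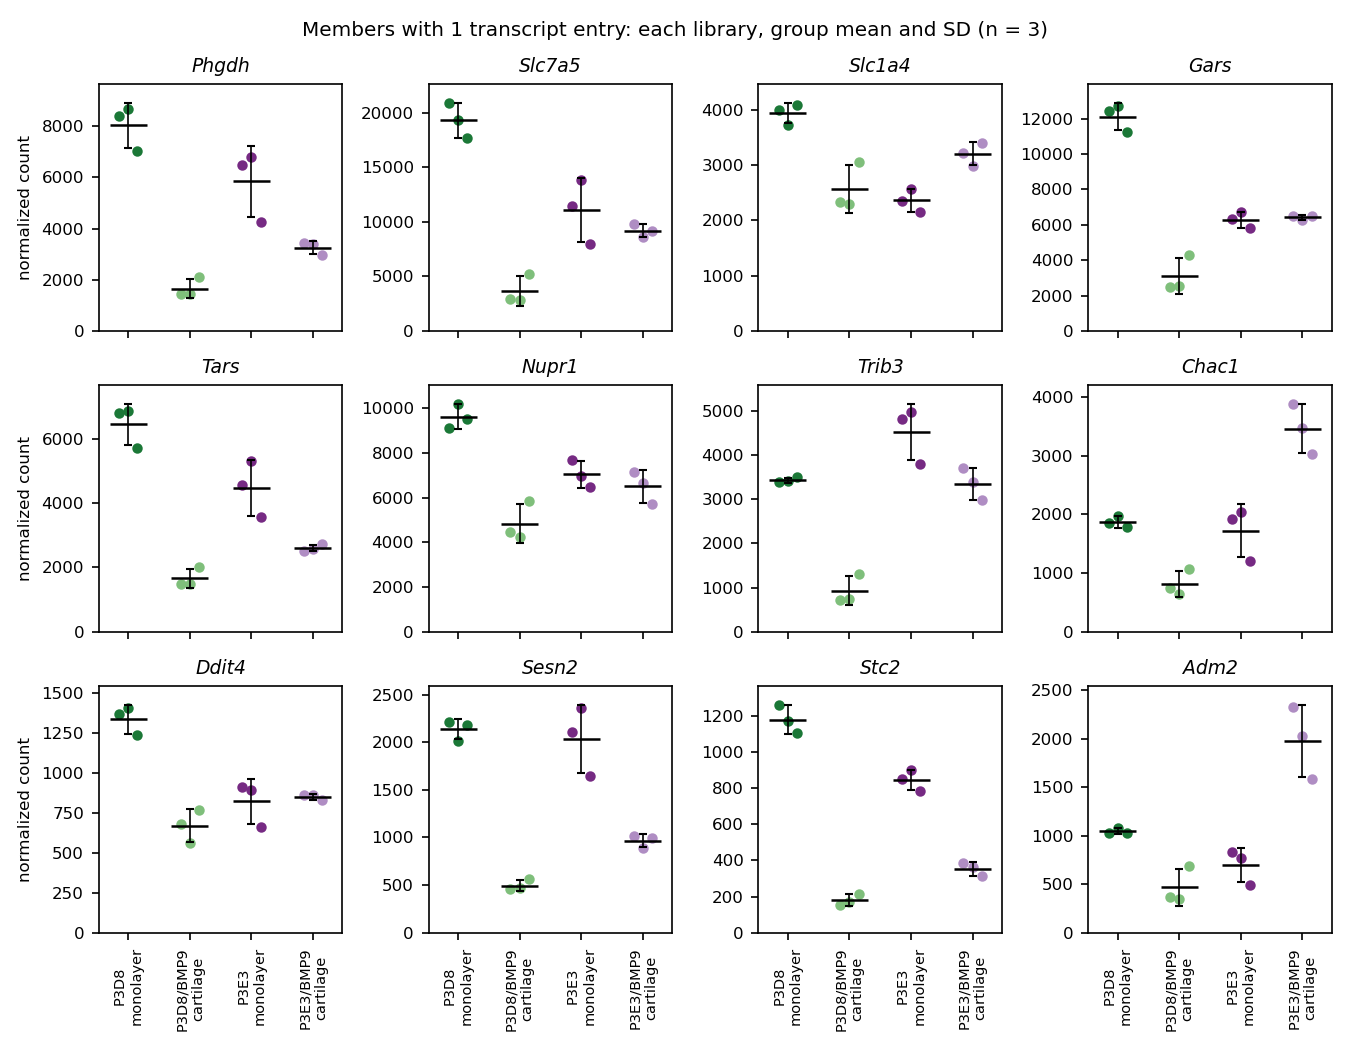
Normalized counts of the 12 members with 1 transcript entry. Points are libraries, bars are group means and whiskers SD (n = 3), and each axis starts at 0. P3D8 monolayer is the highest group in 9 panels, P3E3 monolayer in that of *Trib3*, and P3E3/BMP9 in those of *Chac1* and *Adm2*.

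Of the transporters, *Slc7a5*, the large neutral amino acid transporter LAT1 (chr8:121881146-121907686), was the most counted member. It had 20926, 19315 and 17674 normalized counts in P3D8 monolayer and 2945, 2847 and 5221 in P3D8/BMP9. In P3E3 it had 11480, 13813 and 7983 in monolayer and 9771, 8594 and 9189 in cartilage, within the range of the monolayer. P3D8 monolayer lay above and P3D8/BMP9 below every P3E3 library. The log2FC was -2.45 (SE 0.21, limma adjusted p = 8.26e-08) in P3D8. In P3E3 it was -0.24 (95% interval -0.69 to 0.22, adjusted p = 0.31). Without replicate 3 of both P3D8/BMP9 and P3E3 monolayer, left out together after the data had been seen, the P3E3 value was -0.46 (adjusted p = 0.000882). With all libraries and scaled to total reads it was -0.85 (adjusted p = 0.00152).

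*Slc1a4*, the neutral amino acid transporter ASCT1 (chr11:20302180-20332713), moved in opposite directions. It fell from 3996, 3730 and 4089 normalized counts to 2332, 2295 and 3056 in P3D8, a log2FC of -0.63 (SE 0.10). In P3E3 it rose from 2348, 2573 and 2155 to 3218, 2986 and 3399, a log2FC of 0.44 (SE 0.10, limma adjusted p = 0.00139). Scaled to total reads the P3E3 value was -0.17 (adjusted p = 0.136), so the rise in P3E3 depends on the scale.

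*Slc7a11*, the cystine and glutamate exchanger xCT, fell in both clones. It had 70.5, 18.6 and 39.7 normalized counts in P3D8 monolayer, 4.47, 9.06 and 6.33 in P3D8/BMP9, 15.1, 30.8 and 17.7 in P3E3 monolayer and 6.13, 4.13 and 4.29 in P3E3/BMP9. Monolayer and cartilage did not overlap within a clone, while the clones overlapped in both cultures. The log2FC was -2.38 (SE 0.42) in P3D8 and -1.88 (SE 0.42) in P3E3. *Slc6a9*, the glycine transporter GLYT1, had 81.3 ± 10.9, 17.5 ± 10.9, 38.2 ± 10.9 and 29.0 ± 10.99 (SD, n = 3 each) in the same group order. It fell in P3D8 (log2FC -2.29, SE 0.36) and was not called in P3E3 (-0.41, 95% interval -1.19 to 0.36). *Slc3a2*, the heavy chain that carries SLC7A5 and SLC7A11 to the membrane, had 21.9 to 27.9, 22.9 to 30.5, 20.5 to 24.3 and 27.3 to 29.9 and passed in no comparison. With its 4 entries summed, its P3D8 value was 0.66 (adjusted p = 0.00207).

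Of the tRNA synthetases, *Gars*, for glycine (chr6:55038001-55079504), had 12442, 12703 and 11241 normalized counts in P3D8 monolayer and 2493, 2531 and 4301 in P3D8/BMP9. It had 6316, 6723 and 5797 in P3E3 monolayer and 6496, 6262 and 6502 in P3E3/BMP9. The P3E3 groups overlapped, and every P3E3 library lay between the P3D8 groups. The log2FC was -2.01 (SE 0.16, limma adjusted p = 2.74e-08) in P3D8 and 0.034 (95% interval -0.30 to 0.37) in P3E3, which was -0.57 (adjusted p = 0.00267) when scaled to total reads. *Tars*, for threonine (chr15:11383663-11399658), fell in both clones. It had 6779, 6842 and 5701 against 1481, 1491 and 2006 in P3D8, and 4554, 5298 and 3556 against 2519, 2564 and 2711 in P3E3. Its 4 groups did not overlap, with P3D8/BMP9 the lowest. The log2FC was -1.97 (SE 0.14) and -0.76 (SE 0.14). *Sars* and *Yars*, for serine and tyrosine, had means of 10.6 and 11.98 and several entries. *Sars* was higher in cartilage in both clones (log2FC 1.13 and 1.04, SE 0.33 each). *Yars* was lower in P3E3 (-1.57, SE 0.47) and not called in P3D8 (-0.78, 95% interval -1.80 to 0.24). The P3E3 call of *Sars* did not hold when scaled to total reads (0.49, adjusted p = 0.19).

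Of the stress effectors, *Chac1*, which degrades glutathione (chr2:119351242-119354326), fell in P3D8 and rose in P3E3. It had 1848, 1981 and 1791 normalized counts in P3D8 monolayer and 746, 647 and 1068 in P3D8/BMP9, and 1918, 2045 and 1213 in P3E3 monolayer and 3884, 3472 and 3037 in P3E3/BMP9. The monolayers of the clones overlapped, and the cartilages lay on opposite sides of them. The log2FC was -1.22 (SE 0.19, limma adjusted p = 4.13e-05) in P3D8 and 1.03 (SE 0.19, adjusted p = 0.000172) in P3E3, and when scaled to total reads the P3E3 value was 0.43 (adjusted p = 0.0464). *Adm2*, which encodes the peptide adrenomedullin 2 (chr15:89322720-89324731), had 1030, 1078 and 1022 in P3D8 monolayer and 363, 352 and 687 in P3D8/BMP9. It had 828, 766 and 493 in P3E3 monolayer and 2325, 2023 and 1583 in P3E3/BMP9, above every other library. The log2FC was -1.23 (SE 0.24) in P3D8 and 1.52 (SE 0.24) in P3E3 (adjusted p = 0.000276 and 3.44e-05), and 0.92 in P3E3 when scaled to total reads.

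*Trib3*, a pseudokinase that dampens ATF4 (chr2:152337425-152344060), had 3384, 3407 and 3493 normalized counts in P3D8 monolayer and 723, 747 and 1310 in P3D8/BMP9. In P3E3 it had 4807, 4972 and 3804 in monolayer and 3703, 3376 and 2978 in cartilage. P3D8/BMP9 was the low group, with no library above 1310 where no other library was below 2978. The log2FC was -1.94 (SE 0.18, limma adjusted p = 1.72e-07) in P3D8 and -0.43 (SE 0.18, adjusted p = 0.04) in P3E3. The P3E3 call was lost without replicate 1 or 2 of P3E3 monolayer (-0.38 and -0.36) or replicate 2 or 3 of P3E3/BMP9 (-0.44 and -0.35), with adjusted p values of 0.072 to 0.128.

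*Sesn2*, sestrin 2, a leucine sensor that restrains mTORC1 (chr4:132492804-132510456), had 2213, 2018 and 2179 normalized counts in P3D8 monolayer and 455, 468 and 561 in P3D8/BMP9. In P3E3 it had 2104, 2359 and 1651 in monolayer and 1016, 885 and 990 in cartilage. The monolayers overlapped and the cartilages did not. *Stc2*, the secreted glycoprotein stanniocalcin 2 (chr11:31359441-31370061), had 1264, 1171 and 1108 against 154, 170 and 216 in P3D8, and 852, 901 and 786 against 385, 362 and 312 in P3E3. Its 4 groups did not overlap. The log2FC was -2.11 and -1.07 for *Sesn2* and -2.72 and -1.26 for *Stc2* in P3D8 and P3E3 (SE 0.12 each).

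*Ddit4*, also called REDD1, an mTORC1 inhibitor (chr10:59949675-59951770), had 1335 ± 90.9, 669 ± 103, 820 ± 140 and 850 ± 18.1 normalized counts (SD, n = 3 each) in P3D8 monolayer, P3D8/BMP9, P3E3 monolayer and P3E3/BMP9. *Nupr1*, a chromatin-associated stress protein (chr7:126623246-126625470), had 9626 ± 549, 4845 ± 876, 7047 ± 612 and 6506 ± 746. Both fell in P3D8, with a log2FC of -1.005 for *Ddit4* and -1.004 for *Nupr1* (SE 0.13 and 0.12). In P3E3 their libraries overlapped between the cultures, with intervals of -0.20 to 0.34 for *Ddit4* and -0.37 to 0.14 for *Nupr1*. Scaled to total reads both were lower in P3E3/BMP9 cartilage, at -0.54 and -0.73. *Ddit3*, which encodes CHOP, was the tested effector that was higher in P3D8/BMP9 cartilage, and in P3E3 it rose as *Chac1* and *Adm2* did. It had 24.8, 27.0 and 29.2 in P3D8 monolayer, 37.3, 50.3 and 63.3 in P3D8/BMP9, 21.7, 23.7 and 22.5 in P3E3 monolayer and 57.4, 48.8 and 33.5 in P3E3/BMP9. Cartilage lay above monolayer without overlap in both clones (log2FC 0.84 and 0.97, SE 0.23 each). This is 1 of 4 entries, a predicted transcript, and when scaled to total reads neither call held (0.47 and 0.39, adjusted p = 0.081 and 0.144).

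**Figure D4:**
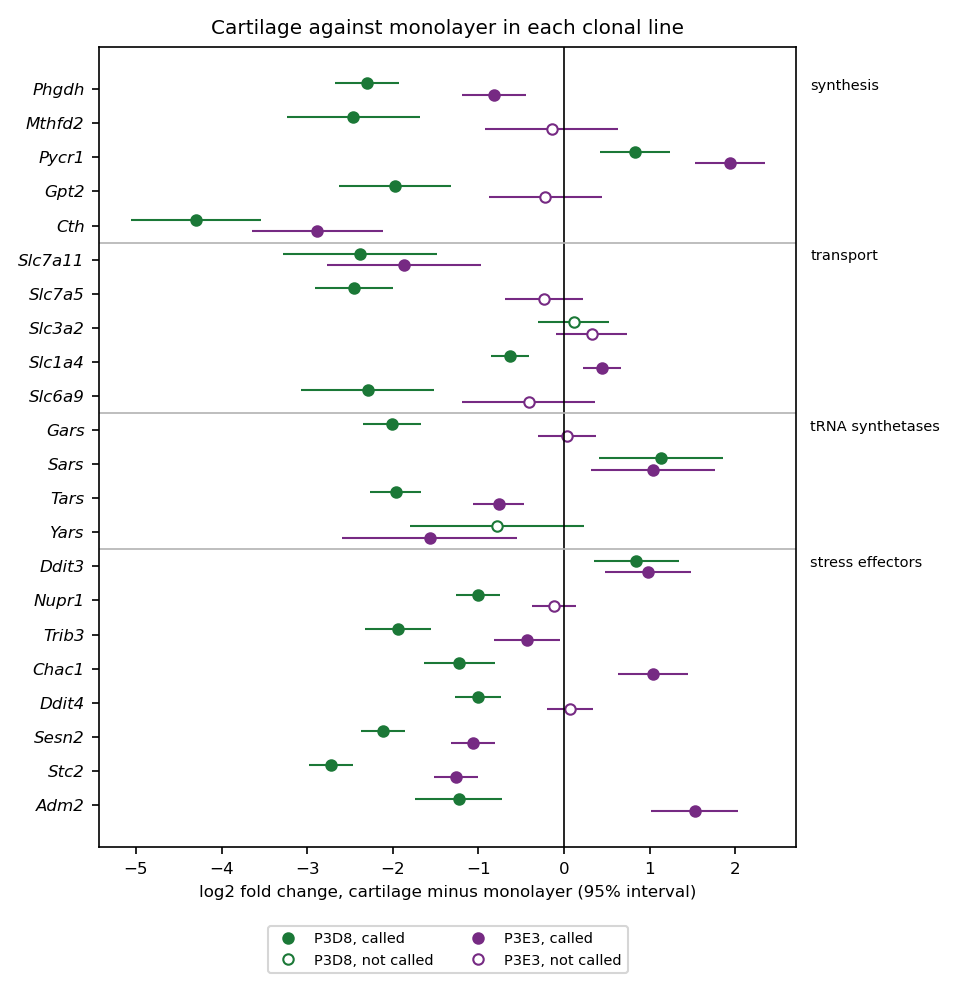
Change from monolayer to cartilage of the 22 tested members in P3D8 and P3E3, as log2FC (axis) with 95% intervals from limma. Filled points were called and open points were not. For 20 of the 22 members the P3D8 point lies to the left of the P3E3 point, the exceptions being *Sars* and *Yars*.

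The clones were then set side by side within each culture. In monolayer, 11 of the 22 members were higher in P3D8 and 1, *Pycr1*, was lower, where 26.7% of all tested transcripts were higher and 23.4% lower. The median was 0.49 against 0.0073 over all transcripts. Those higher included *Gars* (log2FC 0.95, SE 0.16), *Slc7a5* (0.83, SE 0.21), *Slc1a4* (0.74, SE 0.10) and *Ddit4* (0.72, SE 0.13). The others higher were *Phgdh*, *Gpt2*, *Slc6a9*, *Tars*, *Nupr1*, *Stc2* and *Adm2*, at 0.45 to 1.10, and of all 11 the libraries of the clones overlapped in *Gpt2*. P3E3 monolayer replicate 3 was low for most members. The call in monolayer was lost without that library for *Phgdh* (0.27), *Gpt2* (0.45), *Slc6a9* (0.93) and *Adm2* (0.39). It was lost without replicate 1 of P3D8 monolayer for the same 4 genes (0.45, 0.69, 1.03 and 0.63), and without its replicate 2 for *Phgdh*, *Gpt2* and *Adm2* (0.42, 0.89 and 0.60). It was also lost without its replicate 3 for *Gpt2*, *Slc6a9* and *Adm2* (0.78, 1.05 and 0.63), without replicate 1 of P3E3 monolayer for *Gpt2* and *Slc6a9* (0.81 and 1.05), without replicate 1 of P3E3/BMP9 for *Gpt2* (0.79) and without its replicate 2 for *Adm2* (0.62). The count of members higher was 7 without P3D8 monolayer replicate 1 or P3E3 monolayer replicate 3, and 6 without the 4 libraries whose labels disagree. *Chac1* (0.15, 95% interval -0.26 to 0.56) and *Sesn2* (0.083, -0.17 to 0.34) were not called.

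In cartilage the order was the opposite. Here 16 of the 22 members were lower in P3D8/BMP9 than in P3E3/BMP9 and none was higher by limma, where 28.3% of all tested transcripts were lower and 22.0% higher. At an unadjusted p under 0.05 none was higher, and edgeR and DESeq2 on the recovered reads also called none higher. The count lower was 13 by each, where edgeR called 24.4% and DESeq2 25.3% of all tested transcripts lower. Not called were *Ddit4* and *Cth* by either, *Slc1a4* by edgeR (adjusted p = 0.0622) and *Gpt2* by DESeq2 (adjusted p = 0.0567). The median was -0.95, against -0.034 over all transcripts. The paper, by contrast, lists *Slc3a2* among genes higher in P3D8 than in P3E3 cartilage. In the entry used here, it had 22.9 to 30.5 normalized counts in P3D8/BMP9 and 27.3 to 29.9 in P3E3/BMP9 (-0.097, SE 0.19). With all entries summed no member was called higher. With no filter on low values 1 was called higher. *Psph*, too low to be tested, had 7.42 to 11.2 in P3D8/BMP9 and 1.65 to 5.15 in P3E3/BMP9. The largest differences were those of *Adm2* (log2FC -2.13, SE 0.24), *Chac1* (-2.10, SE 0.19), *Pycr1* (-1.94, SE 0.19), *Trib3* (-1.90, SE 0.18) and *Mthfd2* (-1.70, SE 0.36). *Slc7a5*, *Gars*, *Phgdh*, *Stc2*, *Gpt2* and *Sesn2* followed at -1.38 to -0.97, and of these the libraries of the clones overlapped in *Gpt2*. Of the members higher in P3D8 monolayer, 10 of 11 were lower in P3D8/BMP9 cartilage, which is 10 of the 16 lower there. Without the 4 libraries whose labels disagree the count lower was 11. The calls of 4 genes in cartilage were each lost when any 1 of several libraries was left out. Without replicate 1 or 2 of P3D8/BMP9 the values were -0.37 and -0.24 for *Ddit4*, -0.78 and -0.81 for *Gpt2*, -0.27 and -0.26 for *Slc1a4* and -0.90 and -0.52 for *Cth*, none of them called. The calls were also lost without replicate 1 or 2 of P3E3/BMP9 for *Ddit4* (-0.35 each), without its replicate 1 or 3 for *Gpt2* (-0.93 and -0.82) and without its replicate 3 for *Slc1a4* (-0.29). That of *Cth* was lost without any 1 of 8 libraries, all but replicate 3 of P3D8/BMP9 and the 3 of P3E3 monolayer (-0.52 to -0.96, adjusted p up to 0.212).

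**Figure D5:**
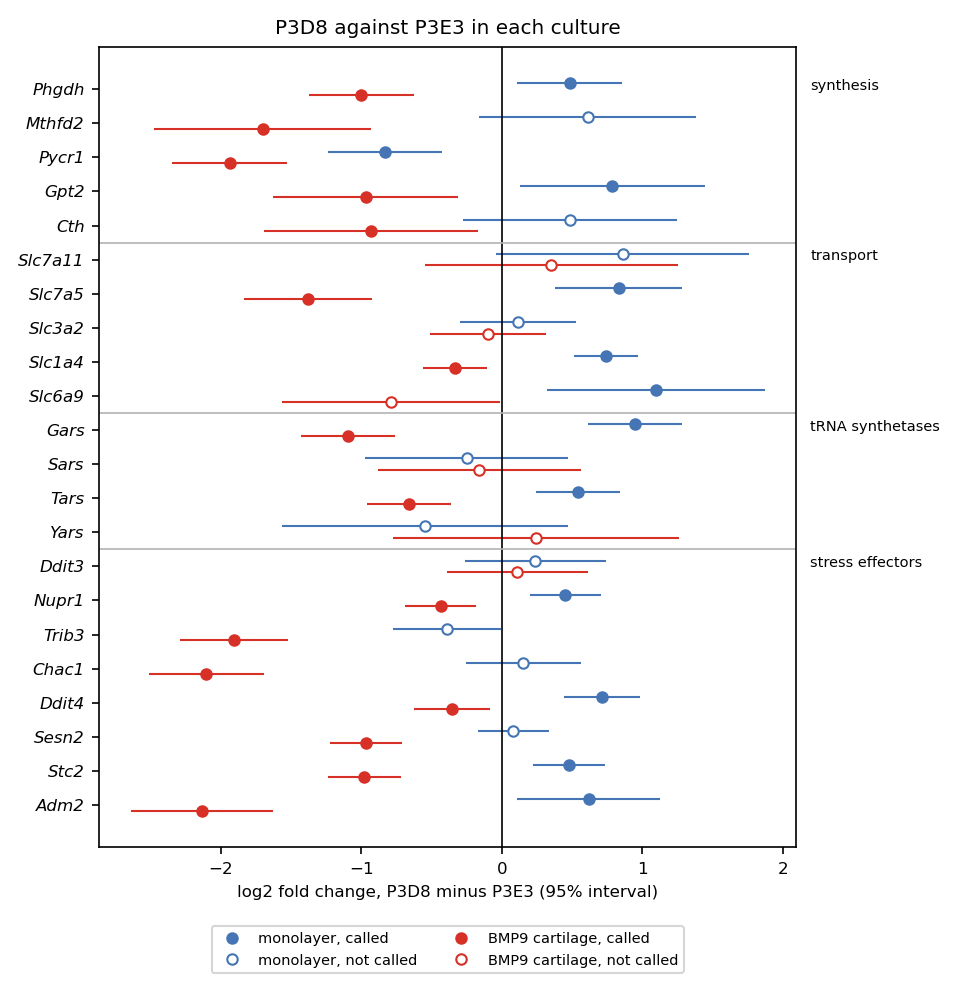
P3D8 against P3E3 in monolayer and in BMP9 cartilage for the 22 tested members, as log2FC (axis) with 95% intervals from limma. Points to the right are higher in P3D8. Among the 12 members with 1 entry all but *Trib3* lie right of 0 in monolayer and all 12 lie left of 0 in cartilage.

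The difference between the responses was tested as an interaction. It was negative, meaning a more negative or less positive change in P3D8, for 17 of the 22 members and positive for none by limma (the count positive was also 0 at an unadjusted p under 0.05 and by edgeR and DESeq2), where 27.8% of all tested transcripts were negative and 18.7% positive. The median was -1.31 against -0.071. It was largest for *Adm2* (-2.75, SE 0.33, adjusted p = 1.71e-05), *Mthfd2* (-2.31, SE 0.51), *Chac1* (-2.26, SE 0.27), *Slc7a5* (-2.21, SE 0.30) and *Gars* (-2.05, SE 0.22). All 12 members with 1 entry were among the 17. The 5 not called were *Slc7a11* (-0.51, 95% interval -1.78 to 0.76), *Slc3a2*, *Sars*, *Yars* and *Ddit3* (-0.13, -0.84 to 0.58), all with several entries and means under 50. The call of *Cth* (-1.42, adjusted p = 0.0321) was lost without any 1 of 9 libraries, all but replicate 3 of P3D8/BMP9 and replicates 1 and 2 of P3E3 monolayer (-1.01 to -1.45, adjusted p up to 0.0817). With replicate 3 of P3D8/BMP9 and of P3E3 monolayer both left out, 17 members were negative and the median was -1.32. Without the 4 libraries whose labels disagree 13 were negative, and *Slc6a9* (-1.57, adjusted p = 0.122), *Pycr1* (-0.64, adjusted p = 0.086), *Gpt2* (-1.20, adjusted p = 0.0857) and *Cth* (-1.07, adjusted p = 0.221) were not called. Grouped by the cell line field in place of the title, 0 members were called negative, and the median was -0.14. That grouping mixes libraries that separated by title along the 2nd principal component.

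The members with 1 entry were all lower in P3D8, so their direction there cannot differ with the CARE motif, and only the range of values is given. The 6 with a match (*Slc1a4*, *Gars*, *Tars*, *Nupr1*, *Trib3* and *Chac1*) had a log2FC of -2.01 to -0.63 in P3D8. The 5 without (*Phgdh*, *Ddit4*, *Sesn2*, *Stc2* and *Adm2*) had -2.72 to -1.005. In P3E3 the 6 with a match ran from -0.76 to 1.03 and the 5 without from -1.26 to 1.52. Of the tested members with a match and several entries, *Slc7a11* was lower, *Pycr1* higher and *Yars* not called in P3D8.

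Other genes of the pathway were taken from 7 lists, of which 95 genes were found and 42 tested. In P3D8, 27 were lower and 11 higher in cartilage, where 38.8% of all tested transcripts were lower and 37.5% higher, and their median was -0.80 against -0.039. In P3E3, 21 were lower and 14 higher, where 38.3% were lower and 41.4% higher, and their median was -0.34 against 0.061. Of the genes for eIF2, its kinases and its phosphatase, *Ppp1r15a*, or GADD34, encodes the inducible subunit of the phosphatase that reverses eIF2 phosphorylation. It had 3223 ± 236, 716 ± 260, 5993 ± 1335 and 2483 ± 390 normalized counts (SD, n = 3 each) in P3D8 monolayer, P3D8/BMP9, P3E3 monolayer and P3E3/BMP9. It fell in both clones (log2FC -2.22 and -1.26, SE 0.21 each). *Eif2s1*, the eIF2 subunit that is phosphorylated, fell by 1.58 and 1.70 on the log2 scale (SE 0.07 each). Of the partner factors, *Atf3*, itself an ATF4 target, had 1149 ± 236, 43.4 ± 11.3, 2282 ± 116 and 211 ± 69.0 in the same order. It was lower in cartilage (-4.70 and -3.48, SE 0.22 each) and lower in P3D8 than in P3E3 in both cultures (-1.01 in monolayer and -2.23 in cartilage).

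All 5 tested genes of the other cytosolic synthetases and their scaffold fell in P3D8, and in P3E3 2 were lower and 1 higher, where 38.8% and 38.3% of all tested transcripts were lower in P3D8 and P3E3. The largest fall was that of *Rars*, for arginine. It had 7746 ± 403, 1106 ± 51.3, 6042 ± 654 and 1243 ± 14.6 normalized counts (SD, n = 3 each) in that order, with a log2FC of -2.81 and -2.28 (SE 0.08 each). *Qars*, for glutamine, followed the pattern of *Slc1a4*, with 1888 ± 210, 1052 ± 42.9, 977 ± 38.6 and 1232 ± 35.7, and its interaction was -1.17 (SE 0.11). Of the 3 tested mitochondrial synthetases, *Mars2*, for methionine, had the largest fall (-1.93 and -3.15, SE 0.20 each). Among other enzymes 8 of 11 were lower in P3D8 and 7 in P3E3, read against the same shares. *Got1*, cytosolic aspartate aminotransferase, had 3988 ± 58.2, 777 ± 139, 4656 ± 456 and 2376 ± 141, and its interaction was -1.41 (SE 0.15). *Ass1*, argininosuccinate synthase, fell in both clones (log2FC -3.01 and -2.97, SE 0.11 each), with an interaction of -0.044 (SE 0.15). *Oat*, ornithine aminotransferase, which links ornithine and proline, was higher in cartilage (2.20 and 2.79, SE 0.07 each).

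The glutamate transporter gene *Slc1a3* had 36.7 ± 7.0 and 699 ± 82.2 normalized counts in P3D8 monolayer and cartilage and 3.60 ± 1.16 and 230 ± 24.1 in P3E3 (SD, n = 3 each). It was the other amino acid transporter with the largest rise (log2FC 4.22 and 5.68, SE 0.20 each). *Slc38a1*, a glutamine transporter, was lower in cartilage of both clones (-3.95 and -3.85, SE 0.47 each). Outside the ATF4 arm of the unfolded protein response, 4 of 5 tested genes were higher in cartilage of each clone, where 37.5% of all tested transcripts were higher in P3D8 and 41.4% in P3E3. The secretory pathway gene *Sdf2l1* was at 1.73 in P3D8 and 3.17 in P3E3 (SE 0.14 each). *Ern1*, the sensor IRE1, was lower at -2.69 and -2.85 (SE 0.24 each).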

How the data were processed

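RNA-seq libraries from 3 independent cultures per group were compared. HISAT2 (mm10) and htseq-count were used by the authors to align the paired-end reads and to count them per RefSeq transcript, and the authors divided the counts by DESeq2 size factors estimated together with published articular and growth plate cartilage datasets. The deposited signal values are therefore normalized counts. Tool versions, strand setting and annotation file are not given in the sources used here. A second table holds the authors' own comparison (fold changes, p values) and was not used.

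In every library all values were whole multiples of the smallest step (tolerance 0.01 reads, 100% of values), and count tests on these recovered reads were an alternative. limma 3.58.1 in R 4.3.3 (trend) was fitted to log2(normalized count + 1) over 12 libraries and 4 groups, for 5333 transcripts with a mean of at least 10, with Benjamini-Hochberg adjustment over all of them, and a call needed an adjusted p under 0.05 at any fold. Fold changes on this scale understate changes of low genes. Tests were two-sided. For each gene the transcript with the most counts was used. The script was also run on simulated data with known changes in a single group, fewer than were called here. That run concerns the code and not these results. Alternatives were other pseudocounts, minimums, scalings, edgeR 4.0.16, DESeq2 1.42.0, summed entries, a fold limit, a replicate block, leaving out libraries, and grouping by the cell line entry.

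Members and lists were chosen with earlier results of these data known. Named are, per function, up to 5 called members with the largest change in any comparison, with *Atf4*, *Atf5*, *Ddit3*, *Asns* and *Slc7a11*, and up to 2 called genes of each other list per comparison. Members named outside this rule were chosen after their values had been seen. Positions and promoters come from RefSeq (GRCm38.p6, the mm10 coordinates), and 8 members had no promoter in the table used (*Cth*, *Slc7a5*, *Slc7a3*, *Cars*, *Lars*, *Mars*, *Nars* and *Wars*).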

Additional observations from a re-analysis of the deposited data

Results flagged for a closer look

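The change from monolayer to cartilage differed between P3D8 and P3E3 for 17 of the 22 members, by the interaction term of limma at an adjusted p under 0.05, where 27.8% of all tested transcripts were called in this direction. The values are P3D8 minus P3E3 on the log2 scale. Among synthesis genes they were -1.48 for *Phgdh*, -2.31 for *Mthfd2*, -1.11 for *Pycr1*, -1.76 for *Gpt2* and -1.42 for *Cth*. Of these 17, *Pycr1* is the one that rose in both clones, by less in P3D8 than in P3E3. Among transporters they were -2.21 for *Slc7a5*, -1.07 for *Slc1a4* and -1.88 for *Slc6a9*, and among tRNA synthetases -2.05 for *Gars* and -1.20 for *Tars*. Among stress effectors they were -0.89 for *Nupr1*, -1.51 for *Trib3*, -2.26 for *Chac1*, -1.07 for *Ddit4*, -1.05 for *Sesn2*, -1.46 for *Stc2* and -2.75 for *Adm2*. For *Slc1a4*, *Chac1* and *Adm2* the change was called in opposite directions in the clones, but for *Slc1a4* not when scaled to total reads, and for none of the 3 when grouped by the cell line field. The latter grouping mixes libraries that separated by title along the 2nd principal component. Dixon's test for a single outlying value was not run.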

How the results depend on the processing

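Of 110 member and comparison pairs tested, 79 were called, and 10 of these lost the call without at least 1 library. The count of members higher in P3D8 monolayer was 7 to 11 and that of members lower 1 to 2 when 1 library was left out; it was 6 higher without the 4 libraries whose title and cell line field disagree. That field mixes libraries that separated by title along the 2nd principal component. Grouped by it, 9 members were called lower in P3D8 and 2 higher in P3E3 on differentiation. Between the clones 0 were called in either direction in monolayer, and 0 were called lower in cartilage or in the interaction. Of values called under either grouping, those that changed direction were *Adm2* (0.013 in the P3D8 response and -0.081 in monolayer), *Slc1a4* (-0.021, P3E3 response), *Gpt2* (-0.19 in monolayer and 0.16 in the interaction), *Nupr1* (0.025, cartilage) and *Pycr1* (0.26, interaction). Scaled to total reads the P3E3 response had 3 members higher and 14 lower, 2 members were lower in P3D8 monolayer, and in P3E3 *Slc1a4* changed direction (-0.17), while *Ddit4* (-0.54) and *Gars* (-0.57), not called before, were called lower. The 2 lower were also seen without replicate 3 of both P3D8/BMP9 and P3E3 monolayer. Both alternatives were chosen after the data had been seen. With an absolute log2FC of at least 1.5 as well, 0 members were higher in the P3D8 response, 2 higher and 3 lower in the P3E3 response, 0 in either direction in monolayer, 5 lower in cartilage and 8 in the interaction. With a mean of at least 50, 1 member was higher in the P3D8 response, and with no filter 1 was higher in P3D8 cartilage. Replicate numbers did not pair the libraries: correlations of same-numbered libraries after subtracting group means were -0.31 to 0.25. A replicate block left 9 members higher in monolayer, 7 lower in the P3E3 response, 15 in cartilage and 16 in the interaction. Low-count rows of genes with several entries limit what can be said of the members that were not tested.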
